A study of Homo sapiens with 6 samples.

Results

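The SLC25 family holds the carrier proteins that move metabolites across the inner mitochondrial membrane. Its members were taken as the genes whose symbol is SLC25A followed by a number, and 48 of the 58825 genes in the deposited table met that rule. PANC-1 is an established human cell line from a pancreatic carcinoma. Poly(A) RNA was sequenced from 3 PANC-1 samples treated with 40 µM maslinic acid (MA), a plant triterpene, for 24 h (MA PANC-1 1, 2 and 3) and from 3 untreated samples at 0 µM (PANC-1 1, 2 and 3), all grown in the same medium. The labels call the second group untreated, and the study's methods name DMSO as the alternative to MA in its cultures, so these samples may have received it. Both groups come from a single line and carry no engineered allele, and 1 dose and 1 time were sampled. The study's methods describe the 3 samples of a group as biological replicates and its experiments as independent. They do not say how the cultures were kept apart, so p-values measure the spread between these samples. The comparison asks how RNA levels in PANC-1 cells differ with and without MA.

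Most mitochondrial carriers are built from repeats of one short module and swap a substrate on one side of the membrane for a counter-substrate on the other. They supply the matrix with phosphate, ADP, amino acids, nucleotides, cofactors and iron, and return ATP, citrate and aspartate to the cytosol. A few relatives sit elsewhere: SLC25A17 in the peroxisome and SLC25A46 in the outer mitochondrial membrane. Several substrates are served by a pair or trio of paralogs, which are genes that arose by duplication. In the deposited annotation 46 of the 48 members carried the GO term for the mitochondrial inner membrane and 47 the term for transporter activity.

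Promoters of 3 members are shown because the results below turn on these genes: SLC25A36 and SLC25A33, the pair that carries pyrimidine nucleotides and holds the largest fold change of the family, and SLC25A17, which had the largest increase among the members past an unadjusted p of 0.05. Each runs from 250 bases before to 50 bases after the gene start in RefSeq (GRCh38.p14), written 5′ to 3′ along the gene, at chr3:140941586-140941885 (plus strand), chr1:9539215-9539514 (plus strand) and chr22:40819297-40819596 (minus strand). Capitals mark the E-box CACGTG, the cAMP response element TGACGTCA, the CCAAT box CCAAT and the ETS motif CCGGAAGT.
SLC25A36: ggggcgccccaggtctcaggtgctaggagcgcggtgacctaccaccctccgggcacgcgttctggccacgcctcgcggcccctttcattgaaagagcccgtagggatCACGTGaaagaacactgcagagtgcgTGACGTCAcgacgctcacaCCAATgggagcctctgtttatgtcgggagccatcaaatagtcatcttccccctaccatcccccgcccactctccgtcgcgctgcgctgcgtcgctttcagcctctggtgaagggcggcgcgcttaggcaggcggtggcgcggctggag
SLC25A33: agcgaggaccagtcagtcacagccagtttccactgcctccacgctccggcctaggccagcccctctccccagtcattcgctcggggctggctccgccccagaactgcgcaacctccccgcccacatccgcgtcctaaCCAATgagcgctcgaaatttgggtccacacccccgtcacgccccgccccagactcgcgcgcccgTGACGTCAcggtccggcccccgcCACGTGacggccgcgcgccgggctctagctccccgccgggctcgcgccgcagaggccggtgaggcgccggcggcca
SLC25A17: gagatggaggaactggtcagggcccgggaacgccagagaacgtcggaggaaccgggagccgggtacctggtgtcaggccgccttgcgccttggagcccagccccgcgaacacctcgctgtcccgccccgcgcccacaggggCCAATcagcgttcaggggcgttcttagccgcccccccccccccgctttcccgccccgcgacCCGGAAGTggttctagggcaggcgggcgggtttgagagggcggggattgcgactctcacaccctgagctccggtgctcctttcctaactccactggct

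The promoters of the pyrimidine carriers SLC25A36 and SLC25A33 held the same 3 motifs, an E-box, a cAMP response element and a CCAAT box, in another order. In SLC25A36 they began at -143, -117 and -98 from the gene start, and in SLC25A33 the E-box began at -26, the cAMP response element at -49 and the CCAAT box at -113. The cAMP response element was present in 3 of 51 promoters of SLC25 members, those of SLC25A25, SLC25A33 and SLC25A36, which is 5.88% against 1.85% of all 35116 promoters searched on both strands. The E-box was present in 17.6% of member promoters against 7.26% of all. SLC25A17 held a CCAAT box at -109 and an ETS motif at -48. The ETS motif occurred in 7.84% of member promoters against 4.14%, and the CCAAT box in 45.1% against 34.6%. The NRF1 motif, searched as one exact palindrome, was in 0 of the 51 member promoters and in 1.24% of all. The TATA box TATAAA was in 7.84% of member promoters against 11.5%. Member promoters had a median GC content of 66.0% against 58.7% for all, and of the 48 members 40 had an entry, some of them several. These matches describe letters in a window and do not show that a factor binds there.

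Over all genes, the 3 treated libraries held 56978375, 63984133 and 58181114 deposited counts and the 3 untreated ones 70275355, 65607669 and 59422939. Of these, SLC25 members took 0.245%, 0.271% and 0.266% with MA and 0.245%, 0.257% and 0.262% without. The epithelial keratin KRT8 stood at 141 to 225 FPKM and KRT18 at 278 to 338 FPKM over the 6 samples, and the mesenchymal filament VIM at 521 to 754 FPKM. FPKM are fragments per kilobase of gene, scaled to the depth of the library. Levels of different genes are ranked below by FPKM, and such ranks depend on the length used for each gene. KRT19, a keratin of pancreatic ducts, was at most 0.109 FPKM, so this ductal marker was all but absent. Markers of other cells were at or near 0 for leukocytes (PTPRC, at most 0.012), endothelium (PECAM1, at most 0.0275), islet beta cells (INS, no reads) and acinar cells (PRSS1, no reads), while CD68 read 25.6 to 40.9 FPKM and COL1A1 2.64 to 5.96 FPKM.

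Libraries of the MA group stood further apart than those of the PANC-1 group. On a first principal component over all tested genes, holding 26.4% of the variance, MA PANC-1 2 lay at -73.6 and MA PANC-1 1 at -29.5, while MA PANC-1 3 at 16.2 lay beside PANC-1 1, 2 and 3 at 24, 18 and 44.9. On the second, holding 21.4%, MA PANC-1 1 lay at 72.2 and MA PANC-1 2 at -43, on opposite sides of the other samples, which ranged from -17 to 7.9. Values with either of these libraries left out are given below where they change a call at the unadjusted threshold or move a called value by more than 1.5 times. Genes encoded in the mitochondrial genome took 5.48% to 6.8% of the counts, with the lowest share in MA PANC-1 1. In these bulk samples, fewer cells that express a carrier and less of its RNA per cell cannot be told apart.

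The carriers of PANC-1 cells spanned a wide range of RNA levels. In the PANC-1 samples 2 members had a mean of at least 100 FPKM, 11 lay between 10 and 100, 24 between 1 and 10, 6 between 0.1 and 1, and 5 below 0.1. SLC25A5, the adenine nucleotide carrier that exports ATP from the matrix for ADP, was the highest by FPKM at 215, 220 and 231. Its paralog SLC25A6 came next at 124, 121 and 121 FPKM. SLC25A3, the phosphate carrier that feeds ATP synthesis, followed them at 48.5, 46.5 and 50.1 FPKM. In the PANC-1 samples these 3 genes held 56.5% ± 1.42 (SD, n = 3) of the summed FPKM of all members, and in the MA PANC-1 samples 57.3% ± 2.03 (SD, n = 3).

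Next in the order came the oxoglutarate carrier SLC25A11 (36.2, 28.2 and 32.2 FPKM in PANC-1), the citrate carrier SLC25A1 (20.8, 33.5 and 28.1), the glycine carrier SLC25A38 (23.1, 25.2 and 22.7), the glutathione carrier SLC25A39 (19, 28.5 and 20.7) and the dicarboxylate carrier SLC25A10 (20, 14 and 18.2). The ranges of these 5 overlapped from one neighbour to the next. Over the whole order, 32 of 42 pairs of neighbours had PANC-1 ranges that overlapped. The FPKM ranges of SLC25A5, SLC25A6 and SLC25A3 were apart, and the order is loose below them. Even the top of the order depends on the gene length used for FPKM. By counts SLC25A3 came before SLC25A5 in PANC-1, with 36159, 32451 and 31517 against 27981, 26783 and 25401. The median coefficient of variation of a tested member was 13.1% in PANC-1 and 14.5% in MA PANC-1.

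A few members were almost or wholly without reads. SLC25A31, the adenine nucleotide carrier of testis, and SLC25A2, an ornithine carrier, had no count in any sample. SLC25A47, a carrier of liver, had 11 counts in PANC-1 1 and none elsewhere. SLC25A48, a choline carrier, had 8 and 2 counts in PANC-1 1 and 2, and SLC25A52, a NAD carrier, had 4 counts in PANC-1 2. These 5 members fell under the mean of 0.1 FPKM set for testing, which left 43 tested. At this depth a difference between the groups was not detectable for them.

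**Figure D1:**
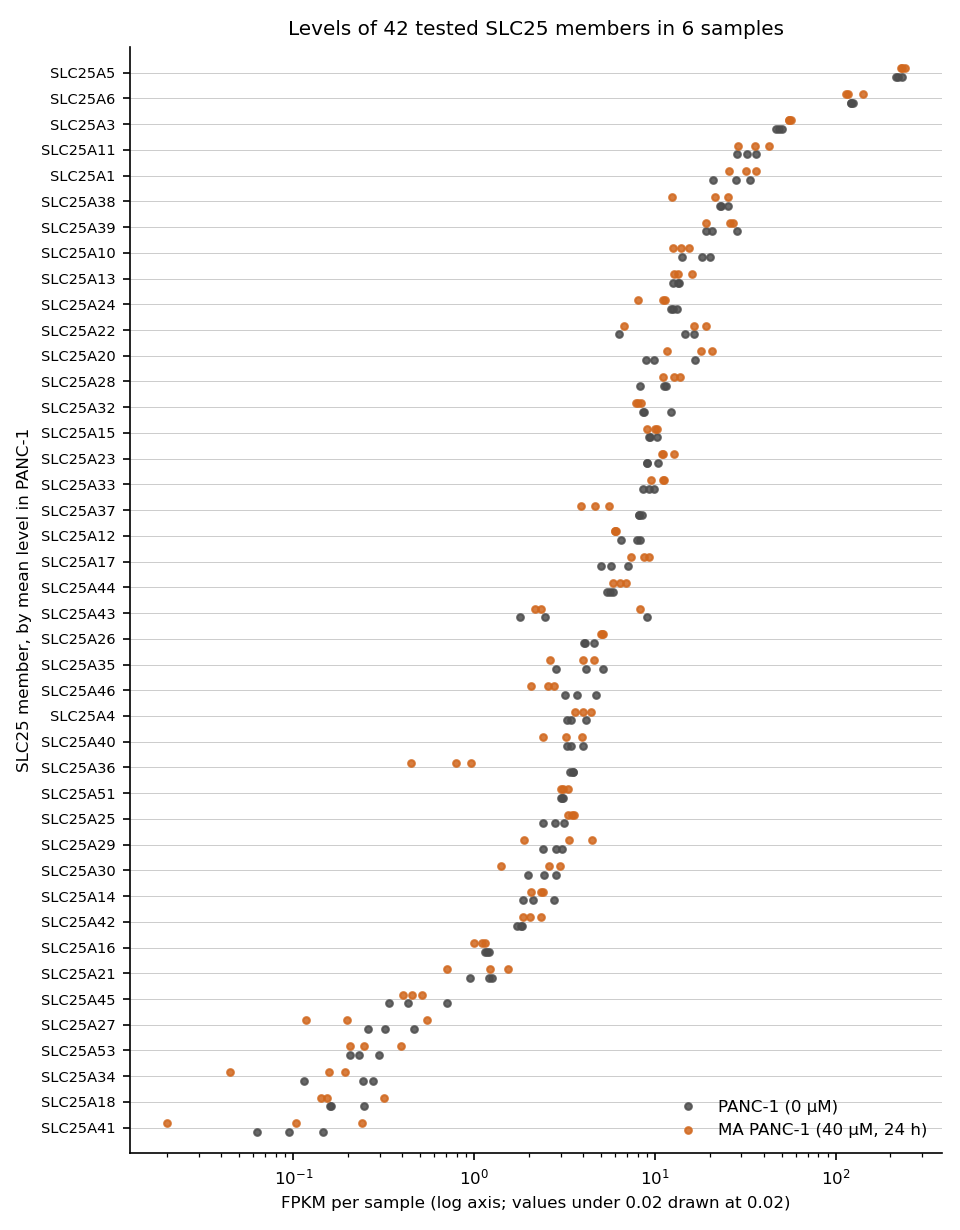
Level of 42 tested SLC25 members in every sample, in FPKM on a log axis, with members ordered by their mean in PANC-1 (grey, 0 µM) and MA PANC-1 samples in orange (40 µM, 24 h). SLC25A5 leads at 215 to 241 FPKM over the 6 samples, and the orange points of SLC25A36 are all left of its grey points.

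The summed level of all 48 members was 721 ± 47 FPKM in MA PANC-1 and 694 ± 24 FPKM in PANC-1 (SD, n = 3 each), a difference inside the spread (two-sided exact permutation test, p = 0.4, where 3 against 3 cannot go below 0.1). Member by member, 9 of the 43 tested passed an unadjusted p of 0.05 in edgeR's quasi-likelihood test, 4 higher and 5 lower in MA PANC-1. That is 20.9% of the members against 11.2% of the 17774 genes tested, or 24.3% against 13.2% among genes with a mean of at least 1 FPKM. By direction it is 9.3% against 5.37% for higher and 11.6% against 5.86% for lower. Only SLC25A36 also passed the study's fold threshold of at least 2 or at most 0.5, as 1.92% of all genes did (1.25% with a fold of at most 0.5). No member passed after Benjamini-Hochberg adjustment over all genes, as 7 genes in all did (0.0394%). DESeq2, run on the same counts, gave 2 members an adjusted p under 0.05, SLC25A36 and SLC25A37, among 263 of the 17774 genes.

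The 4 members with higher levels were SLC25A17, SLC25A3, SLC25A26 and SLC25A23, and the 5 with lower levels SLC25A36, SLC25A37, SLC25A46, SLC25A12 and SLC25A24. The 3 values of each group did not overlap for any of these 9, and each had p = 0.1 in the two-sided exact permutation test, the smallest that 3 against 3 samples can give. In all, 12 of the 43 tested members had groups without overlap, 6 higher and 6 lower, which is 27.9% against 19.9% of all genes tested (8.79% higher and 11.1% lower). The other 3 were SLC25A25, SLC25A32 and SLC25A42. The median log2 fold change over the tested members was 0.12, with 27 above 0 and 16 below, beside a median of 0.00 over all genes tested. Leaving out MA PANC-1 1 moved that median to 0.21 and leaving out MA PANC-1 2 moved it to 0.01, so it rests on which of these libraries enters. Leaving out MA PANC-1 1 gave 4 members higher and 3 lower, where 7.93% of all genes passed, and leaving out MA PANC-1 2 gave 4 and 5, where 10.3% passed.

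**Figure D2:**
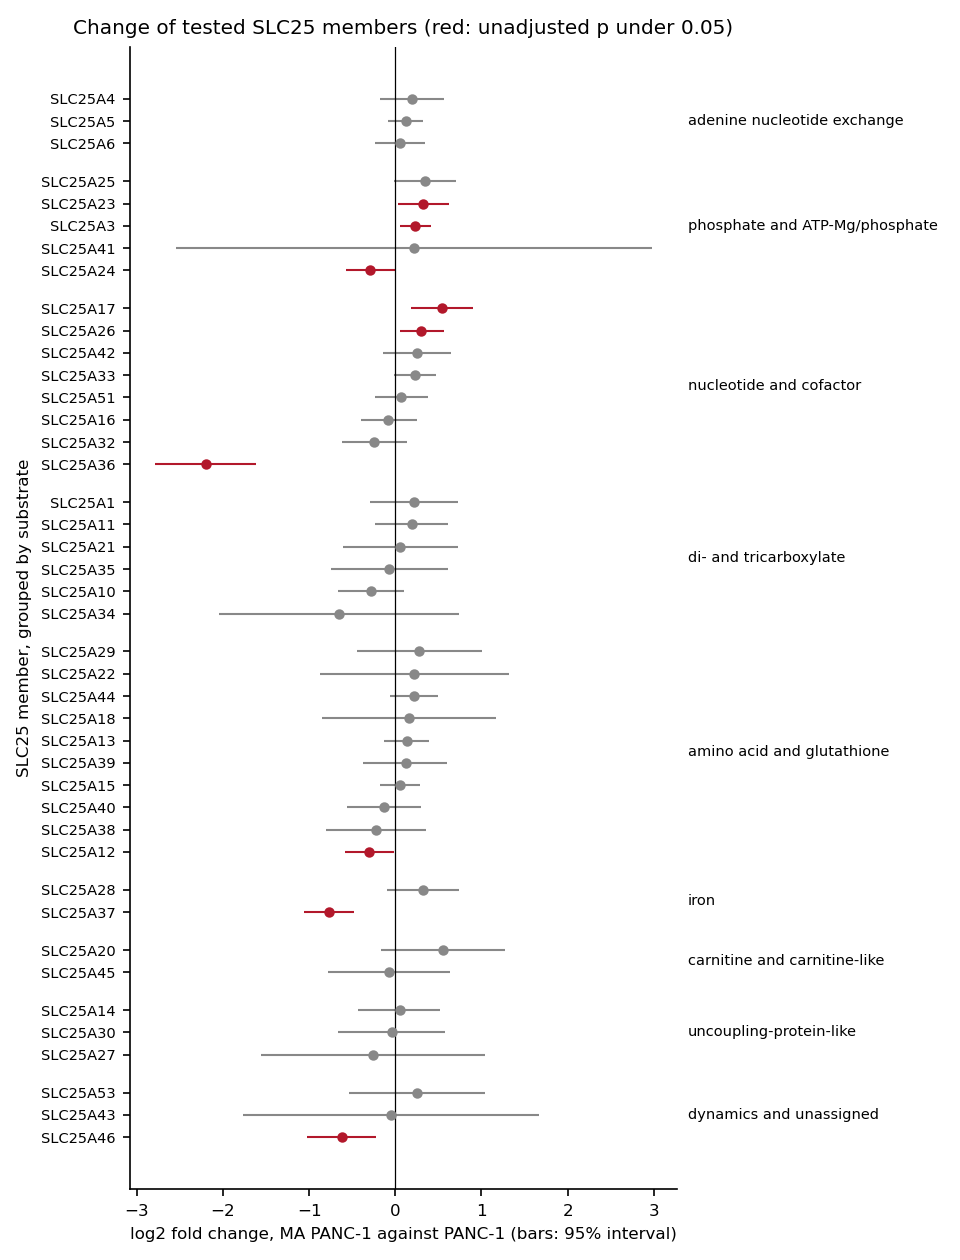
Log2 fold change of MA PANC-1 against PANC-1 for 42 tested members by substrate group, with 95% intervals from the edgeR fit. Red marks the 9 members with an unadjusted p under 0.05, and SLC25A36 at -2.20 stands furthest from 0.

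Nucleotide and cofactor carriers held the largest difference. SLC25A36 (ENSG00000114120, chr3:140941830-140980961, plus strand, GRCh38) carries pyrimidine nucleotides into the matrix, where they feed mitochondrial DNA and RNA synthesis. It read 0.966, 0.446 and 0.796 FPKM under MA (samples 1, 2 and 3) against 3.52, 3.39 and 3.51 FPKM without (samples 1, 2 and 3). The PANC-1 samples lay close together, every MA PANC-1 sample was far below them, and MA PANC-1 2 was the lowest. The counts behind these values were 682, 356 and 577 against 3053, 2743 and 2569. The log2 fold change was -2.20 ± 0.25 (SE, n = 3 each, 95% interval -2.79 to -1.62), a level 4.6-fold lower (Benjamini-Hochberg adjusted p = 0.0743 in edgeR's quasi-likelihood test).

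Over the 15 alternative fits described in the closing section the log2 fold change of SLC25A36 ranged from -2.43 to -1.38 and the adjusted p from 4.86e-16 (DESeq2) to 0.29 (edgeR without PANC-1 3). Leaving out MA PANC-1 1 gave -2.43, and leaving out MA PANC-1 2 gave -1.97 with an edgeR adjusted p = 0.0248. No gene with counts overlapped SLC25A36 on its own strand. On the other strand only genes that reached a set count floor were searched for, and none overlapped it. The quotient of FPKM and depth-scaled counts (CPM) was near constant for SLC25A36 and the other members with at least 100 counts in a sample, with a coefficient of variation of at most 2.54% over the samples, so each of these was scaled by one length and the values hold no information on isoforms.

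SLC25A33, the other carrier of pyrimidine nucleotides, read 11, 9.47 and 11.2 FPKM under MA against 8.59, 9.26 and 9.86 FPKM. These ranges overlapped, and the log2 fold change of 0.23 ± 0.10 (SE) did not pass the unadjusted threshold (edgeR adjusted p = 0.466, 95% interval -0.02 to 0.47). Leaving out MA PANC-1 2 gave 0.26, which passed it. Of the summed FPKM of this pair, SLC25A36 made up 29.1%, 26.8% and 26.3% in PANC-1 and 8.05%, 4.5% and 6.66% in MA PANC-1. The difference was -21.0 percentage points, without overlap between the groups, and -34.7 points when the shares were taken from CPM, which are not scaled by gene length.

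SLC25A17, the peroxisomal carrier of coenzyme A, FAD and NAD, read 9.21, 7.37 and 8.66 FPKM in MA PANC-1 and 5.01, 7.04 and 5.69 FPKM in PANC-1. The lowest MA PANC-1 value was just above the highest PANC-1 value. Its log2 fold change was 0.54 ± 0.15 (SE), a 1.45-fold higher level (edgeR adjusted p = 0.388). SLC25A26 brings S-adenosylmethionine, the methyl donor, into the matrix. It read 5.11, 5.18 and 5.04 FPKM in MA PANC-1 against 4.06, 4.08 and 4.62 FPKM in PANC-1, a log2 fold change of 0.30 ± 0.11 (SE, edgeR adjusted p = 0.429). Its MA PANC-1 samples were nearly equal, and the unadjusted call was lost when MA PANC-1 1, PANC-1 1 or PANC-1 2 was left out.

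Of the 9 tested nucleotide and cofactor carriers 2 were higher and 1 lower at the unadjusted threshold, which 5.37% and 5.86% of genes passed. The remaining 6 did not pass. The coenzyme A carrier SLC25A42 read 2.03, 2.33 and 1.87 FPKM under MA against 1.83, 1.81 and 1.73 FPKM. The folate and FAD carrier SLC25A32 read 7.83, 8.01 and 8.36 FPKM against 8.63, 8.58 and 12.2 FPKM. Both had groups without overlap, and neither passed (edgeR adjusted p = 0.573 and adjusted p = 0.563). The NAD carrier SLC25A51 was steady in PANC-1, at 3.09, 3.03 and 3.06 FPKM, and had a log2 fold change of 0.07 (95% interval -0.23 to 0.38).

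**Figure D3:**
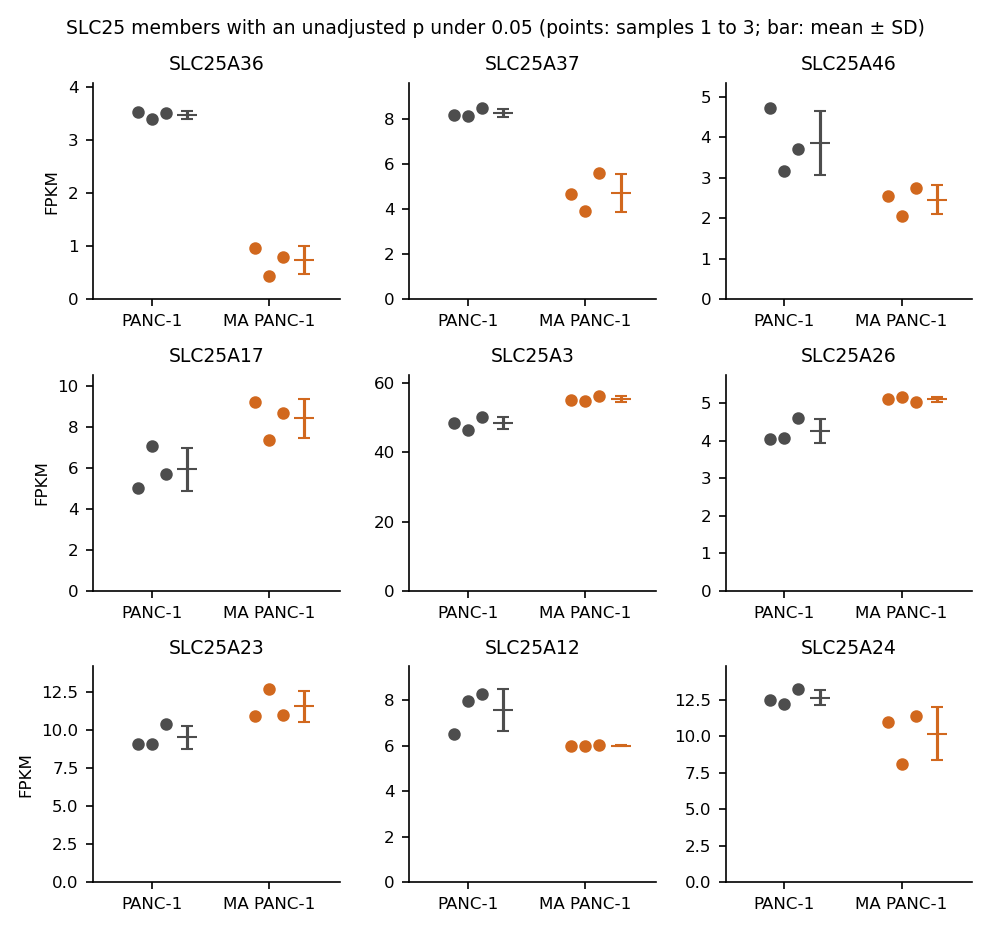
FPKM of the 9 members with an unadjusted p under 0.05 in PANC-1 (grey) and MA PANC-1 (orange), one point per sample in the order of replicates 1 to 3, with the bar giving mean ± SD (n = 3). SLC25A36, SLC25A37, SLC25A46, SLC25A12 and SLC25A24 have every orange point below every grey point, and the other 4 have every orange point above.

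Both mitoferrins, which bring iron into the matrix for heme and iron-sulfur clusters, were expressed. At the unadjusted threshold 1 of them was lower under MA, as were 5.86% of all genes tested. SLC25A37, mitoferrin-1, is the form known from developing red cells. It read 4.68, 3.91 and 5.59 FPKM in MA PANC-1 and 8.16, 8.12 and 8.48 FPKM in PANC-1. The groups were well apart, with a log2 fold change of -0.77 ± 0.12 (SE, 95% interval -1.06 to -0.48), a level 1.71-fold lower (edgeR adjusted p = 0.18). Over the 15 alternatives its log2 fold change lay between -0.89 and -0.69, and its adjusted p between 7.6e-05 (DESeq2) and 0.566 (edgeR without PANC-1 2).

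SLC25A28, mitoferrin-2, the form used in most cells, read 12.7, 13.7 and 11 FPKM under MA against 8.2, 11.5 and 11.2 FPKM. These ranges overlapped, and its log2 fold change of 0.32 did not pass (edgeR adjusted p = 0.517, 95% interval -0.10 to 0.74) and ranged from 0.18 without PANC-1 1 to 0.42 with a sample left out. Mitoferrin-2 made up 50.1%, 58.5% and 56.9% of the summed mitoferrin FPKM in PANC-1 and 73.1%, 77.8% and 66.4% in MA PANC-1. The lowest share under MA was above the highest without it.

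SLC25A46 is an outer membrane member known for its part in mitochondrial fusion and fission. Its level was 2.56, 2.06 and 2.76 FPKM in MA PANC-1 and 4.72, 3.17 and 3.7 FPKM in PANC-1. The PANC-1 samples were spread more widely than those under MA, and the groups did not overlap. The log2 fold change was -0.62 ± 0.17 (SE), a level 1.54-fold lower (edgeR adjusted p = 0.388). SLC25A36, SLC25A37, SLC25A46 and SLC25A17 kept an unadjusted p under 0.05 in each of the 9 alternative fits with all 6 samples and in each of the 6 fits that left out a sample.

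Of the 5 phosphate and ATP-Mg/phosphate carriers 2 were higher and 1 lower at the unadjusted threshold, which 5.37% and 5.86% of all genes passed. SLC25A3 rose from 48.5, 46.5 and 50.1 FPKM in PANC-1 to 54.9, 54.7 and 56.2 FPKM in MA PANC-1 at the unadjusted threshold, a log2 fold change of 0.23 ± 0.08 (SE, edgeR adjusted p = 0.426). The difference is small and the replicates were tight, and the call was lost when PANC-1 1 or PANC-1 2 was left out. ATP-Mg/phosphate carriers set the size of the matrix adenine nucleotide pool and respond to calcium. Of these, SLC25A23 read 10.9, 12.7 and 11 FPKM under MA against 9.07, 9.06 and 10.4 FPKM, a log2 fold change of 0.32 ± 0.13 (SE, edgeR adjusted p = 0.435). The call was lost when MA PANC-1 2 (log2 fold change 0.21), PANC-1 1 or PANC-1 2 was left out. It was also lost with the replicate number as a block.

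SLC25A24, the most abundant ATP-Mg/phosphate carrier in PANC-1, read 11, 8.08 and 11.4 FPKM under MA against 12.5, 12.2 and 13.2 FPKM, a log2 fold change of -0.29 ± 0.12 (SE, edgeR adjusted p = 0.444). MA PANC-1 2 was the lowest of the 6 samples, and without it the log2 fold change was -0.18. SLC25A24 was the weakest of the 9 calls: it was lost in 4 of 9 alternatives with all samples and when MA PANC-1 1 or any of the PANC-1 samples was left out. SLC25A25, another carrier of this kind, was just outside the unadjusted threshold with 3.56, 3.49 and 3.28 FPKM against 2.81, 3.13 and 2.39 FPKM (log2 fold change 0.34, 95% interval -0.01 to 0.70). It was inside the threshold under DESeq2, with the replicate number as a block and, at 0.44, when PANC-1 2 was left out. An antisense gene, SLC25A25-AS1, overlaps it and had a log2 fold change of -0.42, past the unadjusted threshold. The library protocol in the labels marks strand, and the strand setting of the counting is not given in the sources used here. SLC25A24 made up 51.3%, 50.1% and 50.8% of the summed FPKM of the trio in PANC-1 and 43.2%, 33.3% and 44.3% under MA. Besides them SLC25A41, a short relative, was scarcely detected, with 0, 31 and 12 counts under MA and 14, 19 and 8 counts without.

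Amino acid and glutathione carriers gave 1 call among 10 tested, where 11.2% of all genes passed the unadjusted threshold in either direction. SLC25A12 and SLC25A13 exchange aspartate for glutamate in the malate-aspartate shuttle, which brings reducing equivalents into mitochondria. SLC25A12 read 6, 5.97 and 6.05 FPKM under MA and 6.5, 7.96 and 8.25 FPKM in PANC-1, a log2 fold change of -0.30 ± 0.12 (SE, edgeR adjusted p = 0.44). The MA samples were nearly equal and PANC-1 1 lay close to them. The call held in 2 of 6 fits that left out a sample, those without MA PANC-1 2 or PANC-1 1. It was lost with the replicate number as a block. The gene HAT1 overlaps it on the other strand and had 4590, 4054 and 5445 counts under MA against 6342, 5427 and 5632, with a log2 fold change of -0.14 that did not pass.

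SLC25A13 had 12.7, 13.3 and 16 FPKM under MA and 12.6, 13.5 and 13.3 FPKM in PANC-1, which overlapped (log2 fold change 0.13, edgeR adjusted p = 0.667). Its share of the pair was 67.9%, 69.1% and 72.5% under MA and 65.9%, 62.9% and 61.7% in PANC-1, without overlap. The other tested members of the group had log2 fold changes between -0.22 for the glycine carrier SLC25A38 and 0.28 for SLC25A29, a carrier of basic amino acids. SLC25A44, which carries branched-chain amino acids, was at 6.39, 6.9 and 5.83 FPKM under MA and 5.4, 5.65 and 5.86 FPKM in PANC-1 (log2 fold change 0.22, edgeR adjusted p = 0.51), and passed the unadjusted threshold only when MA PANC-1 3 was left out. SLC25A15, the ornithine carrier of the urea cycle, changed little, with a log2 fold change of 0.05 and a 95% interval of -0.18 to 0.29.

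Adenine nucleotide carriers made up about as much summed FPKM as all other members together, and none of the 3 tested passed. This share depends on the length used for each gene, and by counts SLC25A3 alone exceeded SLC25A5 in every sample. SLC25A5 had 230, 241 and 231 FPKM under MA against 215, 220 and 231 FPKM, a log2 fold change of 0.12 with a 95% interval of -0.09 to 0.32 (edgeR adjusted p = 0.617). SLC25A6 had 116, 141 and 113 FPKM against 124, 121 and 121 FPKM, with the high value in MA PANC-1 2. SLC25A4, the form of heart and muscle, had 3.61, 4.44 and 3.98 FPKM against 4.15, 3.41 and 3.27 FPKM. Their summed level was 361 FPKM under MA and 348 FPKM without, and SLC25A5 held 64.9% ± 2.18 and 63.8% ± 1.19 of it (SD, n = 3 each). SLC25A4, SLC25A5 and SLC25A6 have closely related sequences, and how reads that match several copies were assigned is not given in the sources used here. The table also lists 40 SLC25 pseudogenes, of which 28 had no count, and the highest count of one of them in a sample was 24.

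The 6 di- and tricarboxylate carriers gave no call, with log2 fold changes from -0.65 for the low-level SLC25A34 to 0.22 for SLC25A1. SLC25A10, which exchanges malate and succinate for phosphate, read 12.5, 15.3 and 13.9 FPKM under MA against 20, 14 and 18.2 FPKM (log2 fold change -0.28, edgeR adjusted p = 0.526), and passed the unadjusted threshold, at -0.42, when PANC-1 2 was left out. SLC25A11, the oxoglutarate carrier of the malate-aspartate shuttle, read 28.8, 42.6 and 35.8 FPKM against 36.2, 28.2 and 32.2 FPKM. SLC25A1 exports citrate for fatty acid and sterol synthesis and read 31.8, 36 and 25.5 FPKM against 20.8, 33.5 and 28.1 FPKM. Each of these 3 had overlapping groups. The uncoupling-protein-like members SLC25A14, SLC25A27 and SLC25A30 gave no call among 3 tested, with log2 fold changes between -0.26 and 0.05.

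The remaining members had log2 fold changes close to 0 or wide intervals. Among those above 1 FPKM, the glutathione carrier SLC25A40 was at -0.13 (95% interval -0.56 to 0.30), SLC25A16 at -0.08 (-0.40 to 0.25), SLC25A35 at -0.07 (-0.75 to 0.61) and SLC25A21, which carries oxoadipate, at 0.06 (-0.61 to 0.73). SLC25A45, a relative of the carnitine carrier, read 0.512, 0.453 and 0.404 FPKM under MA against 0.34, 0.428 and 0.708 FPKM, and the low-level glutamate carrier SLC25A18 was at 0.16 (-0.85 to 1.17). SLC25A53, without an assigned substrate, read 0.245, 0.395 and 0.205 FPKM under MA against 0.207, 0.232 and 0.296 FPKM. Over all 43 tested members, 31 had a 95% interval that lay inside 1 log2 unit either way, so for these a change of 2-fold or more was outside the interval.

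Several members varied more between samples of a group than between the groups. SLC25A43, a member without an assigned substrate, read 2.18, 2.34 and 8.21 FPKM in MA PANC-1 and 1.79, 9.03 and 2.47 FPKM in PANC-1. One sample of each group, MA PANC-1 3 and PANC-1 2, was far above the other two, and the log2 fold change was -0.05 with a 95% interval of -1.77 to 1.67. SLC25A22, a glutamate carrier, was low in the first sample of each group, with 6.73, 19.1 and 16.4 FPKM under MA and 6.33, 16.4 and 14.6 FPKM in PANC-1. SLC25A20, the carnitine and acylcarnitine carrier of fatty acid oxidation, read 11.7, 20.6 and 18 FPKM under MA and 9.82, 8.94 and 16.7 FPKM in PANC-1. Its log2 fold change of 0.55 had a 95% interval of -0.17 to 1.27 (edgeR adjusted p = 0.513), and it did not pass the unadjusted threshold. Leaving out MA PANC-1 1 or PANC-1 3 gave 0.76 or 0.88, both past that threshold, while leaving out MA PANC-1 2 or PANC-1 2 gave 0.33 or 0.38, neither past it.

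SLC25A38, which brings glycine in for heme synthesis, was even across PANC-1 and split under MA, with 12.4 FPKM in MA PANC-1 1 against 21.4 and 25.4 FPKM in MA PANC-1 2 and 3. SLC25A29 read 3.33, 4.46 and 1.88 FPKM under MA and 2.41, 2.82 and 3.04 FPKM in PANC-1. SLC25A27, a low-level uncoupling-protein-like member, read 0.199, 0.117 and 0.551 FPKM under MA and 0.26, 0.466 and 0.323 FPKM in PANC-1. In SLC25A29 and in SLC25A27, MA PANC-1 3 was outside the PANC-1 range on the side opposite to MA PANC-1 1 and 2. Without MA PANC-1 3 their log2 fold changes were 0.57 and -1.07, both past the unadjusted threshold. What set these samples apart was not tested.

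**Figure D4:**
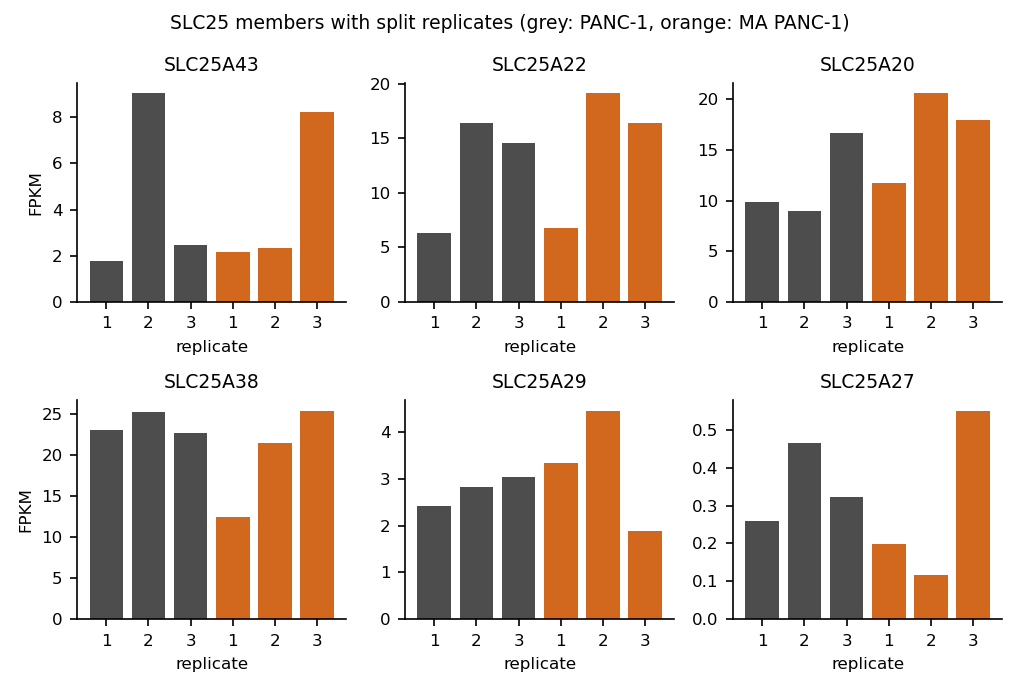
FPKM in each sample of 6 members whose replicates split, PANC-1 1 to 3 in grey and MA PANC-1 1 to 3 in orange, with bars from 0. SLC25A43 is high in PANC-1 2 (9.03) and MA PANC-1 3 (8.21), and SLC25A22 is low in PANC-1 1 (6.33) and MA PANC-1 1 (6.73).

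Shares within sets of paralogs were compared in 9 sets. In 4 of them the groups did not overlap: the share of SLC25A36 among the pyrimidine nucleotide carriers differed by -21.0 percentage points, SLC25A28 of the mitoferrins was 17.2 higher, SLC25A24 of the ATP-Mg/phosphate carriers differed by -10.5 and SLC25A13 of the aspartate/glutamate carriers was 6.34 higher. Each had p = 0.1 in the two-sided exact permutation test, the smallest that 3 against 3 samples can give, and p = 0.225 after Benjamini-Hochberg adjustment over the 9 sets, so no set could pass. Leaving out any one sample kept the direction, with differences of -21.8 to -20.0, 14.5 to 20.2, -12.5 to -6.97 and 5.0 to 7.53 percentage points. The lowest size for the ATP-Mg/phosphate carriers came without MA PANC-1 2. SLC25A39 held 88.1% ± 3.35 of the glutathione carriers under MA and 86.1% ± 3.24 without (SD, n = 3 each), which overlapped (exact permutation p = 0.5).

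**Figure D5:**
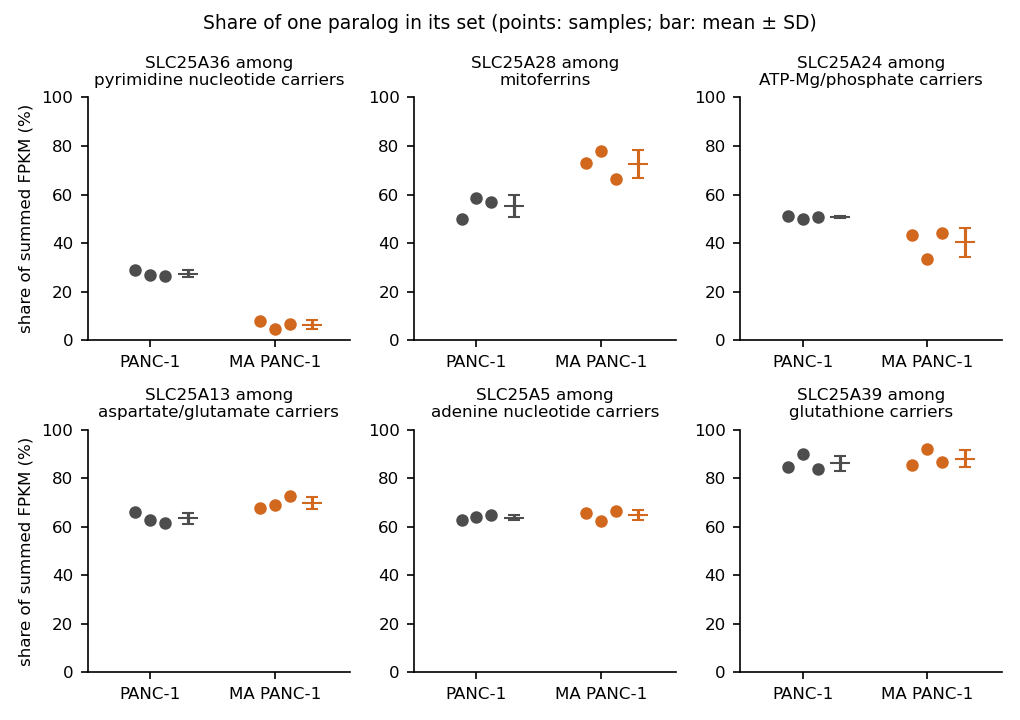
Share of one paralog in the summed FPKM of its set, in percent, per sample (points) with mean ± SD (n = 3) for PANC-1 (grey) and MA PANC-1 (orange). SLC25A36 lies at 26.3% to 29.1% in PANC-1 and at 4.5% to 8.05% in MA PANC-1, every SLC25A28 share under MA is above every share without, and SLC25A5 and SLC25A39 overlap.

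Genes that work beside the carriers were taken from 5 lists holding 46 genes, of which 43 were tested, with 1 higher and 2 lower at an unadjusted p of 0.05 in edgeR (background 5.37% and 5.86%) and a median log2 fold change of 0.04. None of the 10 genes of the TIM22 route, which inserts carriers into the inner membrane, passed, and the most abundant of them, TIMM10, read 61.7, 59.7 and 54.3 FPKM under MA and 56.5, 74.7 and 52.8 FPKM in PANC-1. None of 12 tested genes of mitochondrial nucleotide supply passed. None of the 3 outer membrane channels passed, with VDAC1 at 100, 120 and 116 FPKM under MA and 97.8, 99.5 and 118 FPKM in PANC-1.

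Among 11 tested mitochondrial carriers that lack an SLC25A symbol, MTCH1, a relative of the family in the outer membrane, read 57.4, 62.3 and 54.1 FPKM under MA against 48.1, 43.9 and 51.5 FPKM (log2 fold change 0.32, edgeR adjusted p = 0.429). Its paralog MTCH2 was the most abundant at 104, 111 and 107 FPKM against 100, 97.6 and 97.5 FPKM and did not pass (edgeR adjusted p = 0.493). Of 7 tested regulators of mitochondrial biogenesis, TFAM, which packs and transcribes mitochondrial DNA, read 7.78, 5.28 and 8.33 FPKM under MA against 9.08, 9.31 and 10.4 FPKM (log2 fold change -0.40, edgeR adjusted p = 0.435). GABPA, an ETS factor of nuclear genes for mitochondrial proteins, read 5.09, 3.67 and 6.13 FPKM against 7.06, 5.9 and 8.12 FPKM, which overlapped (log2 fold change -0.47, edgeR adjusted p = 0.436). Without MA PANC-1 2 the log2 fold change was -0.25 for TFAM, which still passed, and -0.33 for GABPA, which did not. The calls of both were also lost when MA PANC-1 1, PANC-1 1 or PANC-1 3 was left out, that of TFAM without PANC-1 2 too, and that of MTCH1 without PANC-1 1 or PANC-1 2. The lowest sample by FPKM for TFAM and GABPA was MA PANC-1 2, as it was for SLC25A36, SLC25A37, SLC25A46 and SLC25A24. For SLC25A12, the other lower member, MA PANC-1 2 was barely the lowest, at 5.97 FPKM against 6 and 6.05 in MA PANC-1 1 and 3. Without MA PANC-1 2 the log2 fold change of SLC25A12 was -0.33, against -0.30 with all samples. ESRRA, the most abundant regulator of the list, was at 25.5, 29.8 and 22.6 FPKM against 21.9, 22.6 and 12.3 FPKM and did not pass (edgeR adjusted p = 0.487).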

How the data were processed

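RNA of 6 PANC-1 samples, 3 with 40 µM MA for 24 h and 3 without, was grouped by the treatment in the labels. The authors deposited an FPKM value per gene and sample, normalized by them for gene length and depth, with 0.0001 listed for genes without reads. Beside it they deposited a whole-number read count per gene and sample, not normalized. The submitters' processing notes name cutadapt 1.9, HISAT2 2.0.4, StringTie 1.3.4d, edgeR and DESeq2. Gene positions are on GRCh38, and the annotation release is not given in the sources used here. The counts sum to more than the valid reads listed for the libraries, so precision was taken from the replicates, and halved counts were tried.

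Genes with a mean of at least 0.1 FPKM over the 6 samples (17774) were tested with edgeR 4.0.16 (R 4.3.3), quasi-likelihood test with TMM and no covariate, and p-values were adjusted by Benjamini-Hochberg over all of them. Intervals are 95% intervals from the same fit. Single shares and sums were given two-sided exact permutation tests over samples. Alternatives used DESeq2 1.42.0, limma 3.58.1 on log2(FPKM + 0.1) and log2(FPKM + 1), DESeq2's size factors in edgeR, other filters, halved counts, summed same-strand overlaps, a replicate block and leaving out each sample. The edgeR, limma and DESeq2 fits were tested on simulated data with known changes, with limma on log2 CPM. The simulated replicates varied less than these samples, so that run checked the code and not the error rates here.

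Named were members with an unadjusted p under 0.05, the 8 most abundant, the extremes of each substrate group, the 3 with the largest SD between replicates, SLC25A36 with its paralog, and the called and most abundant genes of the companion lists. Other members were named after their values were seen, some of them for non-overlapping groups, paralog sets or split replicates. The members and lists were chosen with earlier results of these data known. Promoters came from a RefSeq table, GRCh38.p14. A member and a companion gene that the rule or the figures would include are not reported here. The proteome of the study was not analysed here.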

Additional observations from a re-analysis of the deposited data

How the results depend on the processing

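SLC25A36 kept its direction and an unadjusted p under 0.05 in every alternative run, at -1.38 under limma on log2(FPKM + 1), between -2.26 and -2.15 in the other 8 fits with all samples, and between -2.43 and -1.97 with a sample left out. Its adjusted call did not: the number of members with an adjusted p under 0.05 was 0 in edgeR, where 9 had an unadjusted p under 0.05, 2 under DESeq2, and 1 (SLC25A36) under a filter at 1 FPKM (adjusted p = 0.0476), under limma on log2(FPKM + 1) (0.0351) and with overlapping genes summed (0.0379). Leaving out a sample gave 0 to 1, the 1 without MA PANC-1 2. All genes with an adjusted p under 0.05 numbered 7, against 263 under DESeq2, 12 under the filter at 1 FPKM, 11 with overlaps summed, 24, 4 and 3 with MA PANC-1 2, MA PANC-1 1 or PANC-1 2 left out. Genes past the fold and p thresholds numbered 342, against 569 without a filter, 93 under the filter at 1 FPKM, 44 under limma on log2(FPKM + 1) and 534 without MA PANC-1 3. Genes with an unadjusted p under 0.05 numbered 1995, against 3213 without MA PANC-1 3, 1178 without PANC-1 1 and 1201 without PANC-1 3.

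Leaving out a sample gave 1 to 6 members higher (1 without PANC-1 1, 2 without PANC-1 2, 6 without MA PANC-1 3, where 6.63%, 7.72% and 18.1% of all genes passed in either direction), 3 to 5 lower (3 with MA PANC-1 1 or PANC-1 3 left out, where 7.93% and 6.76% passed), 1 to 2 past the fold and p thresholds (SLC25A27 added without MA PANC-1 3), 1 to 6 companion genes (1 without PANC-1 2, 2 without PANC-1 1 or PANC-1 3, 6 without MA PANC-1 3) and a member median of 0.01 to 0.21. Companion genes passing numbered 3 of 43 tested, and 5 under DESeq2, where 11.2% and 12.1% of all genes passed. The member median was 0.03 and 0.02 under limma with pseudocounts of 0.1 and 1. It was 0.06 without a filter and 0.08 with the replicate block. The share of SLC25A36 in its pair fell by 34.7 points when shares were taken from CPM, which ignore length.

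Direction turned for members that did not pass: SLC25A43 was 0.02 and 0.00 under limma with pseudocounts of 0.1 and 1, and SLC25A41 -0.06 under limma with 0.1. With a sample left out the ranges were -0.91 to 1.01 for SLC25A43, -1.0 to 0.80 for SLC25A41, -0.41 to 0.03 for SLC25A38, -0.10 to 0.14 for SLC25A6, -0.02 to 0.32 for SLC25A39, -0.08 to 0.57 for SLC25A29, -1.07 to 0.09 for SLC25A27, -0.07 to 0.22 for SLC25A14, -0.12 to 0.46 for SLC25A53, -0.11 to 0.57 for SLC25A22, -0.28 to 0.29 for SLC25A45, -0.18 to 0.29 for SLC25A21 (as low as -0.02 with all samples), -0.36 to 0.39 for SLC25A18, -0.24 to 0.19 for SLC25A30, -0.29 to 0.14 for SLC25A35 and -0.29 to 0.01 for SLC25A40. SLC25A1 ranged from 0.06 to 0.39, SLC25A34 from -1.01 to -0.26 and SLC25A20 from 0.33 to 0.88. The range was 0.05 to 0.15 for SLC25A5 and 0.05 to 0.21 for SLC25A13. For SLC25A15 it was 0.02 to 0.11 and for SLC25A44 0.12 to 0.30. The cause of these changes was not tested.

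The labels give both groups replicate numbers 1 to 3, but nothing says that a number marks a shared culture or day. Deviations of same-numbered samples from their group means had correlations of 0.0294, 0.0502 and 0.0724 across genes, below 0.1, and each sample correlated best with its own number, a hint from the data and not the design. With the replicate number as a block in edgeR, SLC25A36 was at -2.26 (adjusted p = 0.246), 3 members were higher and 4 lower (SLC25A26, SLC25A23 and SLC25A12 lost their unadjusted call and SLC25A25 gained one), 0 genes had an adjusted p under 0.05 (2215 an unadjusted one), 5 companion genes passed, SLC25A43 was at 0.08 and SLC25A41 at -0.43. SLC25A2 and SLC25A31, without a count in any sample, could not be tested, and SLC25A47, SLC25A48 and SLC25A52, with at most 11 counts in a sample, entered the fit without a filter (46 members) and did not pass there.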
